A study of Mus musculus with 12 samples.

Results

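A set of 8 genes linked to peroxisome proliferator-activated receptors (PPARs) were followed in cardiomyocytes (CMs) that lack *Cpt1b*: the uncoupling protein genes *Ucp3* and *Ucp2*, the lipoprotein lipase inhibitor *Angptl4*, the acyl-CoA thioesterases *Acot2*, *Acot1* and *Acot13*, the cytochrome P450 gene *Cyp4b1* and the alpha-arrestin *Txnip*. All peaks of histone H3 trimethylated at lysine 4 (H3K4me3) that carried a member's gene name were taken, which gave 7 peaks for 7 genes, 1 each, out of 15848 peaks in all. *Cyp4b1* had no peak. The members were chosen by the difference between genotypes that these libraries show, so that difference is given below as values and not as a test.

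H3K4me3 was profiled with ChIP–seq, that is, sequencing of immunoprecipitated chromatin, in nuclei of adult mouse hearts, sorted on the cardiomyocyte protein PCM1. There were 3 CtrlCre libraries, from αMHC-Cre mice with intact *Cpt1b*, and 3 Cpt1bcKO libraries, from αMHC-Cre littermates in which both *Cpt1b* alleles carried loxP sites around exons 10 and 11. Both groups therefore carried the Cre recombinase, which is driven by a cardiac myosin heavy chain promoter and acts in CMs from embryonic life onwards. The question was where H3K4me3 differs in CMs that cannot use CPT1B to bring long-chain fatty acids into mitochondria. The exact age and the number of hearts behind each library were not given in the sources used here, so the spread between libraries may be partly technical.

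PPARs are nuclear receptors that bind DNA as partners of retinoid X receptors (RXRs) and are activated by fatty acids and their derivatives. In the heart, PPARα and PPARδ raise the transcription of genes for fatty acid uptake, storage, export and oxidation. H3K4me3 marks the start of active genes, so its level at these genes reports on the promoter and not on messenger RNA or protein. Receptor binding was not measured here.

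The sequences just upstream of 5 member genes show the stretch of DNA around which these peaks are placed, and they are printed because the paralogue pairs *Ucp3* and *Ucp2*, and *Acot2* and *Acot1*, differ in the data below. They are RefSeq promoters of the build GRCm38.p6 (mm10), 5′ to 3′ on the gene's strand, which is the plus strand for all 5, and they stop before the first annotated exon. Of the 8 members, 6 had an entry in the promoter table used, and *Angptl4* and *Acot13* are named only. Capitals mark the letters AGGTCA, the hexamer that PPAR and RXR recognise, CCAAT or its reverse complement, and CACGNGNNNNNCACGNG, the carbohydrate response element bound by MondoA and ChREBP. The coordinates are chr7:100472741-100472989 for *Ucp3*, chr7:100493108-100493336 for *Ucp2*, chr12:83987611-83987860 for *Acot2*, chr12:84009252-84009489 for *Acot1* and chr3:96557707-96557956 for *Txnip*.
Ucp3: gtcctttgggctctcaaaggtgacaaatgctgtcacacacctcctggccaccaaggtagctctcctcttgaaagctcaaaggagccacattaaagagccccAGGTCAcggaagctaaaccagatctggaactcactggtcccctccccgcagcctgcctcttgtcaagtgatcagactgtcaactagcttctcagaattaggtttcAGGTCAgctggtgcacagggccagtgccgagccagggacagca
Ucp2: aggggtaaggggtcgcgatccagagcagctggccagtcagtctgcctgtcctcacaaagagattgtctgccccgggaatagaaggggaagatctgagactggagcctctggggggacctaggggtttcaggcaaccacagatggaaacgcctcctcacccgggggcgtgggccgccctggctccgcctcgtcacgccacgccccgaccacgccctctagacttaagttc
Acot2: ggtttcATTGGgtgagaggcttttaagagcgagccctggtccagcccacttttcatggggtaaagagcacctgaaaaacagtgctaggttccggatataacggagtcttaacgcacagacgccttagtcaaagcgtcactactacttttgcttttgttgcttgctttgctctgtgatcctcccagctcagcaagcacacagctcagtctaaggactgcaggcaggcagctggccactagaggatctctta
Acot1: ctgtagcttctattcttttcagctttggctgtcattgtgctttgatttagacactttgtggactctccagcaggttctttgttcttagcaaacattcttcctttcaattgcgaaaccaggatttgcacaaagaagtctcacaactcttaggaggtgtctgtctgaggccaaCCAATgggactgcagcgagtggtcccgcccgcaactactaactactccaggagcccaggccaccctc
Txnip: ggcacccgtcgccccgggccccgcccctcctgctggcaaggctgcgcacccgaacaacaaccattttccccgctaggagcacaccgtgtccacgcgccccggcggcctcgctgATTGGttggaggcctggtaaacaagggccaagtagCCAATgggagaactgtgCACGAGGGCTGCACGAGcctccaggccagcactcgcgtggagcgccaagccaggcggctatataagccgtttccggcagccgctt

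*Ucp3* was the only member among the 6 with a promoter entry to hold AGGTCA in that entry, with copies whose first bases lay 149 and 44 bases before the start site. The hexamer was present on either strand in 16.3% of all 32851 promoters of 300 bases. *Txnip* carried the carbohydrate response element, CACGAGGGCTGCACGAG, from 85 bases before the start, and 0.0487% of all promoters held a match. CCAAT was found in the promoters of *Acot2*, *Acot1* and *Txnip* and in 37.4% of all promoters. The PPAR element proper, the direct repeat AGGTCANAGGTCA with at most 1 mismatch on either strand, was in none of the 6 promoters and in 0.554% of all promoters. In windows of 4000 bases centred on each tested peak, it was in none of the 7 member windows and in 7.05% of 15039 windows. TATAAA was in none of the 6 promoters and in 13.6% of all. A match or its lack describes letters in a window only.

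The values are normalised counts, that is, counts per peak after scaling for library depth. The counting errors given below treat each count as a read, which the sources used here do not show. A log2 difference is Cpt1bcKO minus CtrlCre on log2(value + 1), with its standard error (SE). An adjusted p is from limma with Benjamini–Hochberg adjustment over all 15039 peaks whose mean reached 10, and a peak is called when it is under 0.05. Of all tested peaks, 2.93% were called, 1.11% as higher and 1.82% as lower in Cpt1bcKO, and for 16.3% the values of the genotypes did not overlap. The median log2 difference of all tested peaks was 0.00571. The scaling holds most peaks level, so higher and lower are relative to most peaks and not absolute. The libraries held 763133 to 2766416 counts in peaks, and CtrlCre replicate 2 was the shallowest.

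The targeted gene and cell type markers were looked at first, and neither checks the genotype labels. The *Cpt1b* peak on chromosome 15 was called as higher in Cpt1bcKO (572, 689 and 568) than in CtrlCre (428, 407 and 436), with a log2 difference of 0.52 (SE 0.10, adjusted p = 0.00357 by limma). It does not reach exons 10 and 11, so it does not check the deletion. All 15 cardiomyocyte marker genes had a tested peak, led by *Myh6*, the cardiac myosin heavy chain (2605, 2399 and 2930 in CtrlCre and 2142, 2446 and 1544 in Cpt1bcKO, adjusted p = 0.280 by limma), and *Nkx2-5*, a cardiac transcription factor (1090, 1007 and 1182 against 1024, 1096 and 958, adjusted p = 0.822 by limma). None of the 15 was called by limma (4 at an unadjusted p under 0.05, 0 by limma-voom), and their summed level was 11543 to 13481 in CtrlCre and 9375 to 12849 in Cpt1bcKO. Their median log2 difference was -0.14, with 3 above 0 and 12 below. No leukocyte marker of 9 had a peak.

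All 7 member peaks were tested. H3K4me3 was higher in Cpt1bcKO at *Angptl4*, *Acot2* and *Ucp3*, lower at *Ucp2*, and closer between genotypes at *Acot13*, *Acot1* and *Txnip*. By the rule that called 2.93% of all peaks, 4 members were called, 3 as higher and 1 as lower, and for 5 members the genotypes did not overlap. The rule for the members used this contrast, so nothing is read from those counts. The median log2 difference of the members was 0.15.

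**Figure D1:**
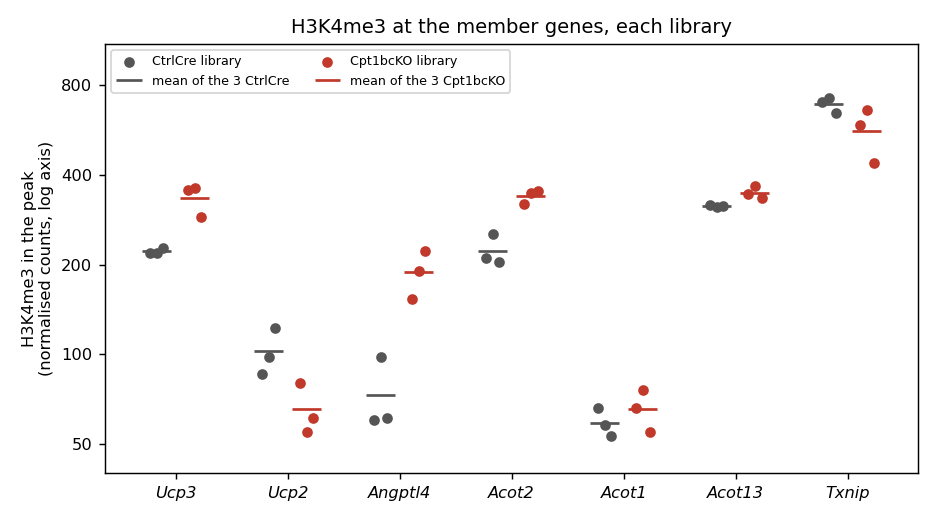
Normalised counts of H3K4me3 (log axis) in the peak of each member gene, with a point for each library and a bar for the mean of 3 libraries per genotype. At Ucp3, Angptl4 and Acot2 every Cpt1bcKO point lies above every CtrlCre point, at Ucp2 every one lies below, and at Acot1 and Txnip the genotypes overlap.

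*Ucp3* encodes a mitochondrial carrier of muscle and heart that is induced by fatty acids. Its peak (chr7:100472457-100477453) began 534 bases before the start site and ran 4462 bases into the gene, and 87.2% of it was intronic. Normalised counts were 218, 219 and 227 in CtrlCre replicates 1 to 3, and 356, 361 and 288 in Cpt1bcKO replicates 1 to 3. The CtrlCre libraries were nearly level, and the lowest Cpt1bcKO library stood above all of them. The SD of the CtrlCre libraries, 4.93, was smaller than their counting error of 17.4, so they lay closer together than counting alone gives on average. The means were 221 ± 4.93 (SD, n = 3) and 335 ± 40.8 (SD, n = 3), a ratio of 1.51 and a log2 difference of 0.59 (SE 0.10). The antisense transcript *Gm10603* also starts inside this peak, and the reads cannot be divided between them.

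*Ucp2*, the broadly expressed relative of *Ucp3*, starts 20346 bases further along the same strand, and it moved the opposite way. Its peak (chr7:100492783-100495644) held 86, 98 and 123 in CtrlCre and 80, 55 and 61 in Cpt1bcKO. The groups did not overlap, although the highest Cpt1bcKO library came within a few counts of the lowest control. The means were 102 ± 18.9 and 65.3 ± 13.1 (SD, n = 3 each), and the log2 difference was -0.64 (SE 0.17).

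Within each library, the level per kb at *Ucp3* exceeded that at *Ucp2* by 0.54, 0.36 and 0.08 on the log2 scale in CtrlCre and by 1.35, 1.91 and 1.43 in Cpt1bcKO. *Ucp3* thus stood above *Ucp2* per kb in every library. The 2 promoters differed less in CtrlCre (mean log2 ratio 0.32 ± 0.23, SD, n = 3) than in Cpt1bcKO (1.56 ± 0.30, SD, n = 3). Over the whole peaks, of which that of *Ucp3* is wider, the CtrlCre means were 221 and 102. The change in the ratio restates the 2 differences given above, by which the members were chosen, and is no separate result. The nearest tested peaks on either side of this pair belonged to other genes. At *C2cd3*, to the left, values were 141, 137 and 139 against 153, 173 and 152 (log2 difference 0.19, adjusted p = 0.491 by limma), and at *COA4*, to the right, 113, 126 and 139 against 124, 105 and 96 (-0.22, adjusted p = 0.535 by limma).

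**Figure D2:**
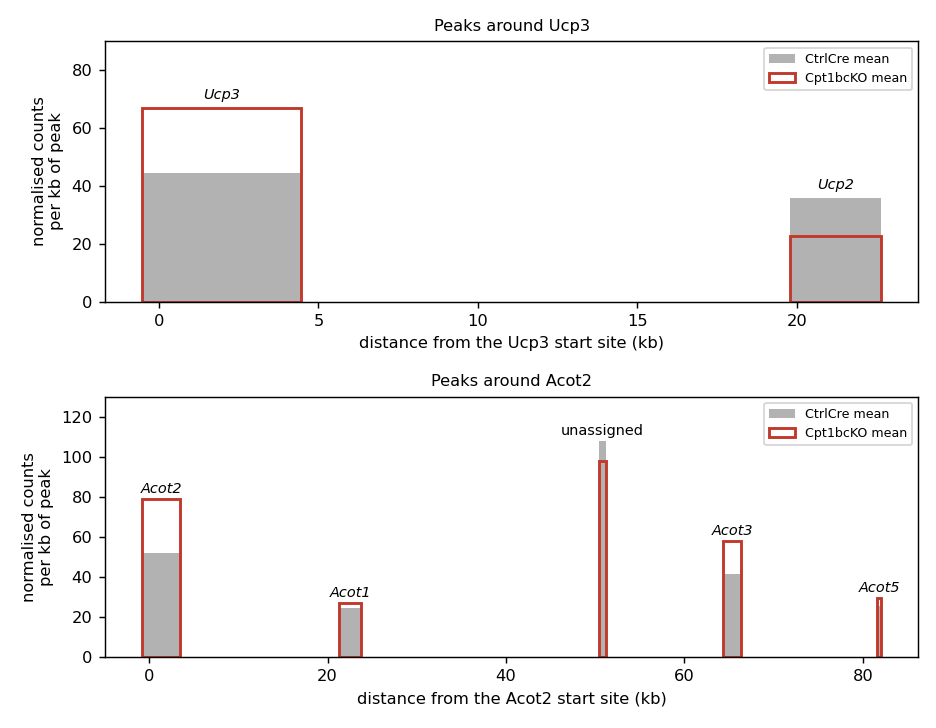
Mean normalised counts per kb of peak (vertical axes) against the distance in kb from the start sites of Ucp3 (top) and Acot2 (bottom), with filled bars for CtrlCre and red outlines for Cpt1bcKO, 3 libraries each. Each bar is as wide as its peak. The outline rises above the filled bar at Ucp3, Acot2 and Acot3, lies below it at Ucp2, and stays close to it at Acot1.

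Some markers of pericytes and smooth muscle were lower in Cpt1bcKO libraries too. Of 8 such genes, 5 had a tested peak and 2 were called, both as lower, while *Cspg4* (59, 84 and 42 against 36, 16 and 38), *Kcnj8* (18, 44 and 23 against 20, 20 and 45) and *Myh11* (18, 14 and 27 against 15, 6 and 15) were not (adjusted p = 0.0610, 0.998 and 0.547 by limma). *Acta2*, smooth muscle actin, held 97, 119 and 71 in CtrlCre and 29, 10 and 24 in Cpt1bcKO (log2 difference -2.23, SE 0.30, adjusted p = 7.36e-05 by limma). *Abcc9*, a potassium channel subunit that CMs also express, held 201, 174 and 175 against 125, 146 and 107 (-0.55, SE 0.12, adjusted p = 0.0127 by limma). The call of *Abcc9* ended without CtrlCre replicate 1 (adjusted p = 0.111), Cpt1bcKO replicate 1 (0.0554) or Cpt1bcKO replicate 3 (0.107) and in thinned libraries (0.0930). Summed over the 5 peaks, the markers gave 338 to 435 in CtrlCre and 198 to 229 in Cpt1bcKO. Of these sums, *Abcc9* alone gave 174 to 201 in CtrlCre and 107 to 146 in Cpt1bcKO. *Pdgfrb*, *Rgs5* and *Tagln* had no peak. The 3 endothelial markers with a peak of 11 listed summed to 136 to 230 and 131 to 159, and none was called by limma (1 at an unadjusted p under 0.05, 0 by limma-voom). The best marked of them were *Esam*, a junction protein (adjusted p = 0.641), and *Kdr*, a growth factor receptor (adjusted p = 0.382). The 2 fibroblast markers with a peak of 9 listed, *Pdgfra* and *Fn1*, summed to 95 to 113 and 96 to 106, and 0 were called by limma (0 at an unadjusted p under 0.05, 0 by limma-voom). The part of such cells in the lower *Ucp2* value was not tested, and fewer nuclei of a type and less H3K4me3 per nucleus cannot be told apart.

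*Angptl4* encodes a secreted protein that inhibits lipoprotein lipase and so limits the uptake of fatty acids from circulating fat. Its peak (chr17:33778476-33782220, gene on the minus strand) reached from 645 bases before to 3099 bases after the start site. Normalised counts were 60, 98 and 61 in CtrlCre and 153, 190 and 222 in Cpt1bcKO. The lowest Cpt1bcKO library lay well above the highest control, the shallow CtrlCre replicate 2. That library had 42 counts in the peak and a counting error of 15.4%. The means were 73.0 ± 21.7 and 188 ± 34.5 (SD, n = 3 each), a ratio of 2.58 and a log2 difference of 1.38 (SE 0.17). No other member had a difference of this size, and 99.2% of all tested peaks had an absolute difference no larger than that of *Angptl4*.

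The target of ANGPTL4 and its relatives were not called. *Lpl*, lipoprotein lipase itself, held 668, 586 and 731 in CtrlCre and 587, 647 and 481 in Cpt1bcKO (log2 difference -0.22, SE 0.12, adjusted p = 0.451 by limma). *Lipe*, hormone-sensitive lipase, held 138, 160 and 130 against 147, 168 and 156 (0.14, SE 0.12, adjusted p = 0.696 by limma). Of 13 genes of lipoprotein lipase handling and the angiopoietin-like family, 7 had a tested peak and 0 were called by limma (0 at an unadjusted p under 0.05, 0 by limma-voom), with differences from -0.22 to 0.26 and a median of 0.02. The neighbours of *Angptl4* were *Rab11b* (90, 49 and 85 against 86, 88 and 88) and *Kank3* (29, 44 and 31 against 25, 29 and 49), and neither was called by limma (adjusted p = 0.613 and 0.976). *Angptl4* is also active in adipocytes, and of 8 adipocyte markers only *Pparg* had a peak, which was called as higher in Cpt1bcKO (199, 159 and 178) than in CtrlCre (130, 126 and 129, adjusted p = 0.0216 by limma), while *Adipoq*, *Fabp4*, *Plin1*, *Cidec*, *Lep*, *Retn* and *Cfd* had none. The part of such cells in the *Angptl4* value was not tested.

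The thioesterases hydrolyse acyl-CoA to free fatty acid and coenzyme A. *Acot2* encodes a mitochondrial enzyme, *Acot1* its cytosolic paralogue, and *Acot13* a smaller enzyme of another fold that is associated with mitochondria. The *Acot2* peak (chr12:83987061-83991365) held 210, 253 and 204 in CtrlCre and 319, 347 and 354 in Cpt1bcKO. Every Cpt1bcKO library exceeded every control, with means of 222 ± 26.7 and 340 ± 18.5 (SD, n = 3 each) and a log2 difference of 0.62 (SE 0.10), close to that of *Ucp3*.

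The *Acot1* peak (chr12:84009199-84011638) was lower and narrower, 21629 bases from the *Acot2* start, and held 66, 58 and 53 in CtrlCre and 66, 76 and 55 in Cpt1bcKO. The groups overlapped. The log2 difference was 0.15 (SE 0.19), and it went from 0.04 without Cpt1bcKO replicate 2 to 0.27 without Cpt1bcKO replicate 3. Within each library the level per kb at *Acot2* exceeded that at *Acot1* by 0.85, 1.31 and 1.13 on the log2 scale in CtrlCre and by 1.45, 1.37 and 1.87 in Cpt1bcKO. These genes are close copies, and the authors kept only reads with 1 place in the genome. Of the stretches of 50 bases in the *Acot1* peak, 11% occurred again within the cluster, against 5.01% in the *Acot2* peak, so the level of *Acot1* in particular is uncertain. The reads were longer than 50 bases before trimming, and repeats elsewhere in the genome were not sought, so these shares are a rough guide.

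*Acot3*, a peroxisomal thioesterase further along the cluster, held 82, 98 and 75 in CtrlCre and 113, 118 and 124 in Cpt1bcKO. Its log2 difference of 0.48 (SE 0.14) missed the threshold (adjusted p = 0.0646 by limma), although the genotypes did not overlap. A peak between *Acot1* and *Acot3* with no assigned gene held 95, 77 and 90 against 86, 67 and 83 (-0.15, adjusted p = 0.774 by limma). *Acot5* lay near the filter at 9, 21 and 9 against 5, 14 and 26. On the other side, *No66* held 135, 133 and 136 against 154, 126 and 164 (0.13, adjusted p = 0.746 by limma).

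*Acot13* lay on chromosome 13, away from the cluster. Its peak (chr13:24829724-24832986) also covers the start of *Tdp2*, a DNA repair gene that runs the other way, so the signal belongs to a shared promoter. Normalised counts were 318, 312 and 315 in CtrlCre and 346, 367 and 334 in Cpt1bcKO. The groups did not overlap, but the log2 difference was 0.15 (SE 0.09). The SD of the controls, 3.0, was smaller than their counting error of 20.7, that is, they lay closer together than counting alone gives on average. The nearest peak, *D130043K22Rik*, held 13, 12 and 15 against 15, 20 and 21, and *BC005537*, on the other side, held 409, 407 and 477 against 512, 603 and 503 (0.32, adjusted p = 0.110 by limma).

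Among the 15 other thioesterases listed, 10 had a tested peak. None was called by limma, while 3 had an unadjusted p under 0.05 and limma-voom called 1. The median log2 difference was 0.06, with 8 of 10 above 0. The best marked of them were *Acot8*, a peroxisomal enzyme (168, 167 and 127 against 177, 159 and 149, adjusted p = 0.868 by limma), and *Them4* (121, 137 and 116 against 114, 140 and 122, adjusted p = 0.994 by limma). In the uncoupling protein family, *Slc25a14* (65, 77 and 64 against 80, 72 and 69) and *Slc25a30* (87, 95 and 79 against 90, 82 and 89) were the 2 of 4 other genes with a peak, and limma called 0 of them (0 at an unadjusted p under 0.05, 0 by limma-voom).

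*Cyp4b1*, a cytochrome P450 of the fatty acid omega-hydroxylase family, showed no H3K4me3 peak over its gene body (chr4:115624725-115647723 in the GENCODE vM21 annotation). The nearest peak, 9482 bases away and with no assigned gene, held 13, 21 and 12 in CtrlCre and 16, 19 and 22 in Cpt1bcKO. Of 16 other *Cyp4* genes, only *Cyp4f13*, *Cyp4f16* and *Cyp4f17* had a tested peak, and limma called 0 of these 3 (0 at an unadjusted p under 0.05, 0 by limma-voom). *Cyp4f13* held 96, 100 and 84 against 96, 97 and 92, and *Cyp4f17* held 76, 60 and 84 against 63, 71 and 60. The hepatic PPAR targets *Cyp4a10* and *Cyp4a14* had no peak.

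*Txnip* encodes an alpha-arrestin that binds thioredoxin and restrains glucose uptake, and its transcription follows glucose through MondoA and ChREBP. Its peak (chr3:96554917-96562429) covered 100% of the gene and was the widest of the members at 7512 bases. It held 704, 725 and 646 in CtrlCre and 586, 663 and 438 in Cpt1bcKO. The groups overlapped because Cpt1bcKO replicate 2 lay above CtrlCre replicate 3, and Cpt1bcKO replicate 3 was the lowest. The means were 692 ± 40.9 and 562 ± 114 (SD, n = 3 each), and the log2 difference was -0.32 (SE 0.12), which became -0.15 without Cpt1bcKO replicate 3. The antisense transcript *Gm15441* also starts in the peak. The adjacent *Gm16253* held 148, 130 and 185 against 137, 136 and 111 (-0.26, adjusted p = 0.430 by limma), and *Hfe2* held 161, 109 and 131 against 109, 152 and 147 (0.03, adjusted p = 0.974 by limma).

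Of 13 genes of the thioredoxin system, alpha-arrestins and Mondo factors, 10 had a tested peak. Beside 2.93% of all tested peaks, 10.0% of these were called, that is, 1 gene. This was *Mlxipl*, which encodes ChREBP, at 133, 105 and 113 in CtrlCre and 184, 161 and 153 in Cpt1bcKO (log2 difference 0.50, SE 0.12, adjusted p = 0.0223 by limma). The call was lost on leaving out CtrlCre replicate 2 (adjusted p = 0.0568), CtrlCre replicate 3 (0.0729), Cpt1bcKO replicate 1 (0.179) or Cpt1bcKO replicate 2 (0.0685), nor thinning to the shallowest library (0.279). *Arrdc3*, an alpha-arrestin related to *Txnip*, held 491, 493 and 507 against 425, 472 and 425 (-0.17, adjusted p = 0.454 by limma), and *Mlxip*, which encodes MondoA, 206, 195 and 216 against 232, 233 and 204 (0.11, adjusted p = 0.719 by limma).

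Per kb of peak, the order of the CtrlCre means was *Acot13* (96.6 ± 0.920), *Txnip* (92.1 ± 5.45), *Acot2* (51.7 ± 6.21), *Ucp3* (44.3 ± 0.987), *Ucp2* (35.8 ± 6.60), *Acot1* (24.2 ± 2.69) and *Angptl4* (19.5 ± 5.78 normalised counts per kb, SD, n = 3). *Acot13* and *Txnip* overlapped over the libraries, as did *Acot1* and *Angptl4*, while the other neighbours in the order did not. In Cpt1bcKO the order became *Acot13* (107 ± 5.12), *Acot2* (79.0 ± 4.30), *Txnip* (74.9 ± 15.2), *Ucp3* (67.1 ± 8.16), *Angptl4* (50.3 ± 9.22), *Acot1* (26.9 ± 4.31) and *Ucp2* (22.8 ± 4.56). There only *Acot13* above *Acot2* and *Angptl4* above *Acot1* were neighbours without overlap. *Angptl4* thus left the last place, which *Ucp2* took.

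**Figure D3:**
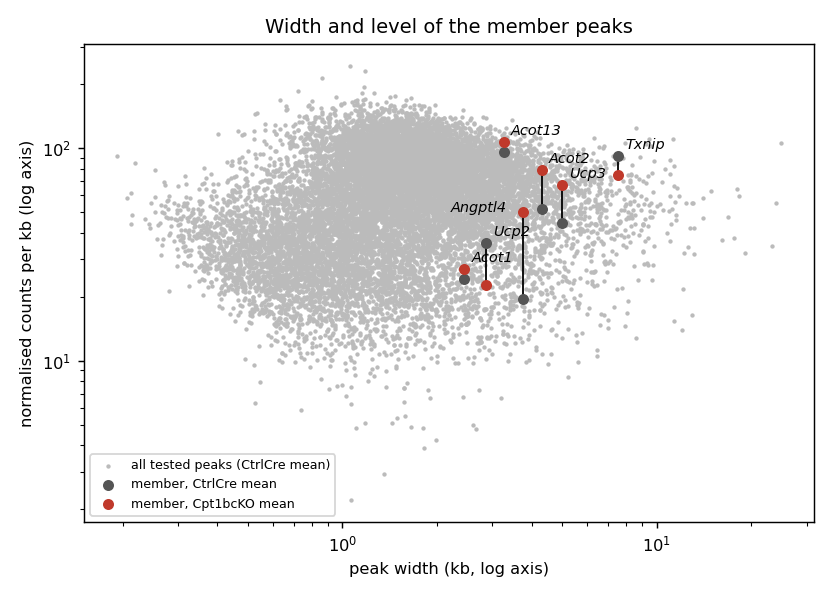
Normalised counts per kb against peak width in kb (both log axes) for all 15039 tested peaks in CtrlCre (small grey points) and for the 7 member peaks (dark points CtrlCre means, red points Cpt1bcKO means, joined by lines). The members lie among the wider peaks, and Angptl4 spans the longest vertical line.

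All member peaks were wide, from *Acot1* at 2439 bases (percentile 79.5 of the tested peaks) to *Txnip* (percentile 99.0). In level per kb they ranged from percentile 6.04 of the tested peaks for *Angptl4* to percentile 84.0 for *Acot13* in CtrlCre, and *Angptl4* stood at percentile 40.3 in Cpt1bcKO. The DNA under them also differed. In windows of 4000 bases around the peak centres, *Ucp3* had 13 CpG per kb, *Angptl4* 21.8, *Acot1* and *Txnip* 27.0 each, *Ucp2* 29.2, *Acot2* 34.8 and *Acot13* 37.5, beside a median of 26.5 over all tested peaks. *Ucp3* and *Acot2* had like differences between genotypes and lay at percentiles 9.90 and 73.7 of CpG content.

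Other PPAR target genes were next compared. Of 49 listed, 37 had a tested peak, 4 were called as higher and 1 as lower, which is 13.5% beside 2.93% of all tested peaks. Their median log2 difference was 0.10, with 23 above 0 and 14 below. The list was written with earlier results of these data known, and these counts describe it only.

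The 4 genes called as higher were *Pdk4*, *Plin5*, *Plin2* and *Slc25a20*. *Pdk4*, a kinase that holds back glucose oxidation, went from 239, 300 and 305 to 499, 548 and 314 (log2 difference 0.66, SE 0.15, adjusted p = 0.0121 by limma). *Plin5*, a lipid droplet protein of oxidative tissue, went from 109, 100 and 115 to 165, 161 and 141 (0.52, SE 0.12, adjusted p = 0.0150 by limma). *Plin2*, another lipid droplet coat protein, went from 103, 100 and 110 to 135, 155 and 151 (0.49, SE 0.12, adjusted p = 0.0236 by limma). *Slc25a20*, the carrier that takes acylcarnitine across the inner mitochondrial membrane, went from 148, 135 and 156 to 201, 230 and 186 (0.49, SE 0.11, adjusted p = 0.0148 by limma). In each of these 4 genes, every Cpt1bcKO library exceeded every control, at *Pdk4* by only 314 against 305. *G0s2*, which inhibits the triglyceride lipase ATGL, fell from 268, 279 and 255 to 189, 207 and 148 (-0.57, SE 0.11, adjusted p = 0.00477 by limma).

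All 5 calls were kept without CtrlCre replicate 2 and without CtrlCre replicate 3, but not without the other libraries. Without CtrlCre replicate 1 the adjusted p was 0.125 for *Pdk4*, 0.0578 for *Plin5*, 0.0929 for *Plin2* and 0.0591 for *Slc25a20*. Without Cpt1bcKO replicate 1 it was 0.116 for *Pdk4*, 0.104 for *Plin5* and 0.0580 for *Slc25a20*. Without Cpt1bcKO replicate 2 it was 0.110, 0.0831 and 0.119 for the same genes and 0.131 for *Plin2*, and without Cpt1bcKO replicate 3 it was 0.112 for *Plin2* and 0.0504 for *G0s2*. In libraries thinned to the shallowest it was 0.450 for *Plin5*, 0.252 for *Plin2* and 0.0802 for *Slc25a20*. The sign of each difference was kept in all of these.

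**Figure D4:**
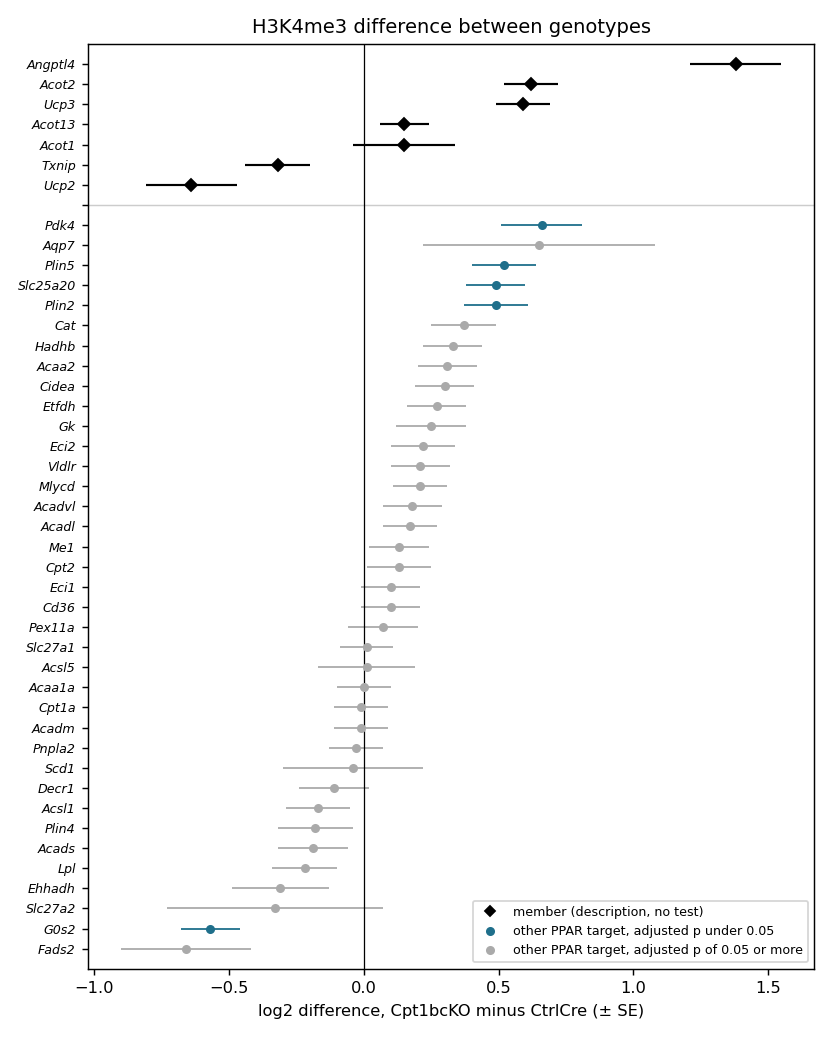
Log2 differences between genotypes (Cpt1bcKO minus CtrlCre, horizontal axis, points with SE bars, 3 libraries each) for the 7 member peaks (black, above the line) and the 37 other PPAR targets with a tested peak (below the line, blue where the adjusted p was under 0.05). Angptl4 has the largest difference of the members at 1.38. Acot2 and Ucp3 lie beside Pdk4 and Aqp7, and Ucp2 lies beside Fads2 and G0s2. Aqp7 and Fads2 were not called.

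The receptors and their coregulators were also examined. Of 20 listed, 18 had a tested peak, and the median log2 difference was 0.06. Of these, 1 was called (5.56%, beside 2.93% of all tested peaks), and 4 had an unadjusted p under 0.05. The genotypes did not overlap for 4, beside 16.3% of all tested peaks that did not. *Ppara* and *Ppard*, the main receptors of the heart, had log2 differences of 0.07 and 0.00 (adjusted p = 0.856 and 1.0 by limma). Of the RXR genes, *Rxra* held 171, 165 and 174 in CtrlCre and 140, 138 and 145 in Cpt1bcKO, without overlap but short of the threshold (-0.27, SE 0.11, adjusted p = 0.247 by limma), and *Rxrg* had a difference of 0.24 (SE 0.20, adjusted p = 0.703 by limma). *Pparg*, the receptor best known from adipocytes, went from a mean of 128 to 179 (log2 difference 0.47, SE 0.11, adjusted p = 0.0216 by limma). Its adjusted p was 0.0769 without CtrlCre replicate 1, 0.0541 without CtrlCre replicate 3, 0.184 without Cpt1bcKO replicate 1, 0.0893 without Cpt1bcKO replicate 3 and 0.112 in thinned libraries. The coactivator genes *Ppargc1a* (550, 504 and 526 against 512, 562 and 413) and *Ppargc1b* (525, 528 and 582 against 641, 693 and 595) were the best marked of the list, and neither was called by limma (adjusted p = 0.794 and 0.290).

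Peaks with the most similar profile over the 6 libraries were sought among 9327 gene-assigned peaks with a mean of at least 50, by the root mean square difference of log2 values after removing each peak's mean. For *Ucp3* the nearest were *Ten1* (0.0643), *Plin5* (0.0693) and *Slc25a20* (0.0942), of which the last 2 are on the list of other PPAR targets. For *Angptl4* they were *N4bp3* (0.159), *Cdh4* (0.234) and *Hsd17b11* (0.275), which encodes a lipid droplet enzyme, all higher in Cpt1bcKO in every library. For *Acot2* they were *Gm20431* (0.0585), *Acot3* (0.0748) and *Tnip1* (0.0842), so that a gene of the same cluster came second. For *Acot1* they were *Mad2l1* (0.0322), *Vwa5a* (0.0512) and *Zfp72* (0.0559), and for *Acot13* *Pdcd6ip* (0.0146), *Hrsp12* (0.0192) and *Osgep* (0.0228). These distances carry no test. The members were chosen by their difference between genotypes in the same 6 libraries. A like difference in the nearest peaks therefore follows from the search.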

How the data were processed

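H3K4me3 ChIP–seq values of 6 libraries (3 per genotype) were used, and the input libraries were not analysed here. As the methods of the study state, the authors checked reads with FastQC (0.11.8), trimmed them with Trimmomatic (0.39), aligned them to mm10 with STAR (2.6.1d), keeping unique alignments, removed duplicates with Picard (2.21.7), called peaks against input with MUSIC (false discovery rate 0.2), merged them and scaled reads per peak with DESeq2 (1.26.0). The deposited values per library are these normalised counts rounded to whole numbers and were treated as a score. The deposited genotype means are an unrounded signal from the same counts, and the deposited fraction of a peak within the gene body was read as annotation. The authors gave each peak the name of its closest gene start, up to 5000 bases away. The deposited fold changes and p-values compare the genotypes and were not used. Scaling sets most peaks to no change, so a shift shared by all peaks is not visible. The paper reported less total H3K4me3 by western blot in sorted CM nuclei of Cpt1bcKO mice, which these values cannot show.

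Whole counts were recovered as the only integers matching the rounded values together with the unrounded means, for 15848 of 15848 peaks. A count of 3 corresponds to values from 1.95 to 6.97. These figures cover counting error only, and only if a count is a read. limma (3.58.1, R 4.3.3) was run on log2(value + 1) with a trend, genotype alone and two-sided tests, over 15039 peaks with a mean of at least 10, leaving out 809; it was tested on simulated data. Fold changes of low peaks are understated on this scale. Sequences and motifs were read with Python (3.11.15). The 8 members and the gene lists were chosen with earlier results of these data known, and 1 listed gene is not reported here and was left out of its list. Named are the members, *Cpt1b*, in each list the genes with an adjusted p under 0.05 (where fewer than 2, also the 2 with the highest mean) and the 3 nearest profiles of *Ucp3*, *Angptl4*, *Acot1*, *Acot2* and *Acot13*. Neighbouring peaks, *Ppara*, *Ppard*, *Rxra*, *Rxrg*, *Cspg4*, *Kcnj8*, *Myh11*, *Acot3*, *Acot5*, *Cyp4f16*, *Aqp7*, *Fads2*, the markers with no peak and the *Cyp4a* genes were named after their values were seen. A gene was represented by its peak with the highest mean. Alternatives were other pseudocounts, filters, scalings, a replicate block, limma-voom, thinning, the widest peak and leaving out each library.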

Additional observations from a re-analysis of the deposited data

How the results depend on the processing

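Over 15 alternatives, the log2 difference of each of the 7 member peaks kept its sign, and 104 of 105 values lay within 1 SD of the spread between libraries. The exception was *Acot13* at 0.21 in thinned libraries. Part of this agreement was fixed in advance. Leaving out 1 of 3 libraries cannot move a difference by 1 such SD. The filters and the replicate block leave the difference of a peak unchanged. *Angptl4* ranged from 1.25 to 1.61, *Ucp3* from 0.53 to 0.69, *Acot2* from 0.56 to 0.71, *Ucp2* from -0.79 to -0.50, *Txnip* from -0.45 to -0.15 and *Acot1* from 0.04 to 0.31. Thinning all libraries to the shallowest, which removes counts, left 100 higher and 155 lower peaks (255 in all) of 167 and 274 (441). It left 1 higher and 2 lower other PPAR targets (3 in all). Of the related families it left 0 genes, and of the markers 0 higher and 1 lower (1 in all). Quantile normalisation called 2 markers as higher. Leaving out each library in turn, which removes samples, gave 85 to 180 higher and 139 to 251 lower peaks (229 to 431 in all), 0 to 4 higher and 0 to 1 lower other PPAR targets (1 to 5 in all), 0 to 2 genes of the related families, all higher, and 0 to 1 higher and 1 to 3 lower markers (1 to 3 in all). The replicate numbers did not pair the libraries (correlations of deviations of 0.0759, -0.0812 and 0.105), and a replicate block called 138 higher and 232 lower peaks, 5 other PPAR targets, 2 genes of the related families and 3 markers.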

Other observations

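With the members themselves passed over, the nearest tested peak on each side of every member, 10 different peaks in all at 6592 to 99569 bases from the closest member, gave log2 differences from -0.26 to 0.45. None was called by limma, 1 had an unadjusted p under 0.05, and limma-voom called 0.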
